A study of Mus musculus with 12 samples.

Results

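This account describes 10 genes grouped as strain-responsive genes of the Z-disc and the intercalated disc: Ankrd1, Ankrd23, Xirp1, Xirp2, Csrp3, Fhl1, Fhl2, Enah, Actn1 and Sprr1a. That name describes the group and not every gene in it. The 10 genes were chosen by symbol from the 55401 genes of the count table, with earlier results of these data known. Each symbol matched 1 row. All 10 passed the filter on low counts that left 15764 genes for testing. Transcripts were counted in 12 libraries from the left ventricle of mice, 3 in each of 4 groups. Wild type mice and mice carrying the Prkca T497A allele had either sham surgery or transverse aortic constriction (TAC, a band on the aortic arch that raises the pressure the left ventricle pumps against). TAC was done with a 27-gauge needle at 10 weeks of age, and tissue was collected 5 weeks later, at 15 weeks. Prkca encodes protein kinase C alpha, a kinase of heart muscle, and T497A replaces a threonine in its activation loop, a change that counts per gene cannot check. Prkca transcripts were at 38.1 to 56.6 CPM in the sham libraries and 50.03 to 62.3 after TAC, with a log2 difference between genotypes of -0.11 ± 0.13 after sham (adjusted p = 1) and -0.10 ± 0.13 after TAC (adjusted p = 0.706, edgeR). The sources used here give no zygosity, sex or strain. Each title carries a number of its own, which may or may not be that of an animal, since the labels do not say what it stands for. The p-values below therefore describe only how these libraries spread.

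The Z-disc anchors actin filaments and titin at the ends of the sarcomere, and the intercalated disc joins one cardiomyocyte to the next and passes force between them. Both hold proteins that bind the cytoskeleton at rest and that also move to the nucleus or recruit signalling enzymes when the cell is stretched. The muscle ankyrin repeat proteins (Ankrd1, Ankrd23), the muscle LIM proteins (Csrp3, Fhl1, Fhl2) and the Xin repeat proteins (Xirp1, Xirp2) are such components, and their transcripts are known markers of hypertrophy. Enah and Actn1 act on actin filaments, and Sprr1a is a small proline-rich protein of stratified epithelium that injured neurons and stressed cardiomyocytes also make.

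The labels call the cell type cardiomyocyte, but the protocol extracts RNA from heart tissue, and markers of other cells were present. The summed level of 7 cardiomyocyte markers lay between 36600 and 59300 CPM (counts scaled to library size with TMM factors) over the 12 libraries. That of 6 fibroblast markers lay between 717 and 2170, of 7 smooth muscle and pericyte markers between 843 and 1090, of 5 endothelial markers between 564 and 826 and of 6 macrophage markers between 149 and 311. Total counts ran from 36862004 to 46898344 per library. After TAC in wild type 6 of the 7 cardiomyocyte markers were called lower and 5 of the 6 macrophage markers higher; the part of such shifts in the results below was not tested. In bulk tissue, fewer cells of a type and less RNA per cell cannot be told apart.

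After TAC in wild type hearts 9 of the 10 genes rose, by 1.43-fold for Csrp3 to 42.7-fold for Sprr1a, and Fhl2 was not called. The share of all tested genes called higher in this comparison was 12.3%, and that of genes called in either direction 25%. Every adjusted p given here is from edgeR, by its quasi-likelihood test, with the Benjamini-Hochberg method applied to the whole set of 15764 genes, and a gene is called when that p is under 0.05. In those 9 genes the lowest TAC library stood above the highest sham library, which held for 21.5% of tested genes (20.7% in the opposite direction). In T497A hearts 0 of the 10 were called after TAC, where 0.0634% of all tested genes were called higher, 0.0507% lower and 0.114% in either direction. At an unadjusted p under 0.05 there were 6, beside 11.7% of all tested genes. Of the 10 log2 fold changes 9 were above 0, and in 7 genes the TAC libraries lay above the sham libraries without overlap, as in 7.71% of all tested genes (7.68% lower). DESeq2 called 2 of the 10 there (Xirp2 and Sprr1a), among 297 genes called in all. With limma-voom 0 of the 10 were called, and 0 genes in all. The median log2 fold change of the 10 was 1.29 in wild type and 0.39 in T497A, against 0.014 and 0.00694 over all tested genes. Since the 10 were chosen with earlier results of these data known, these counts and medians are a description beside all genes and not a test.

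**Figure D1:**
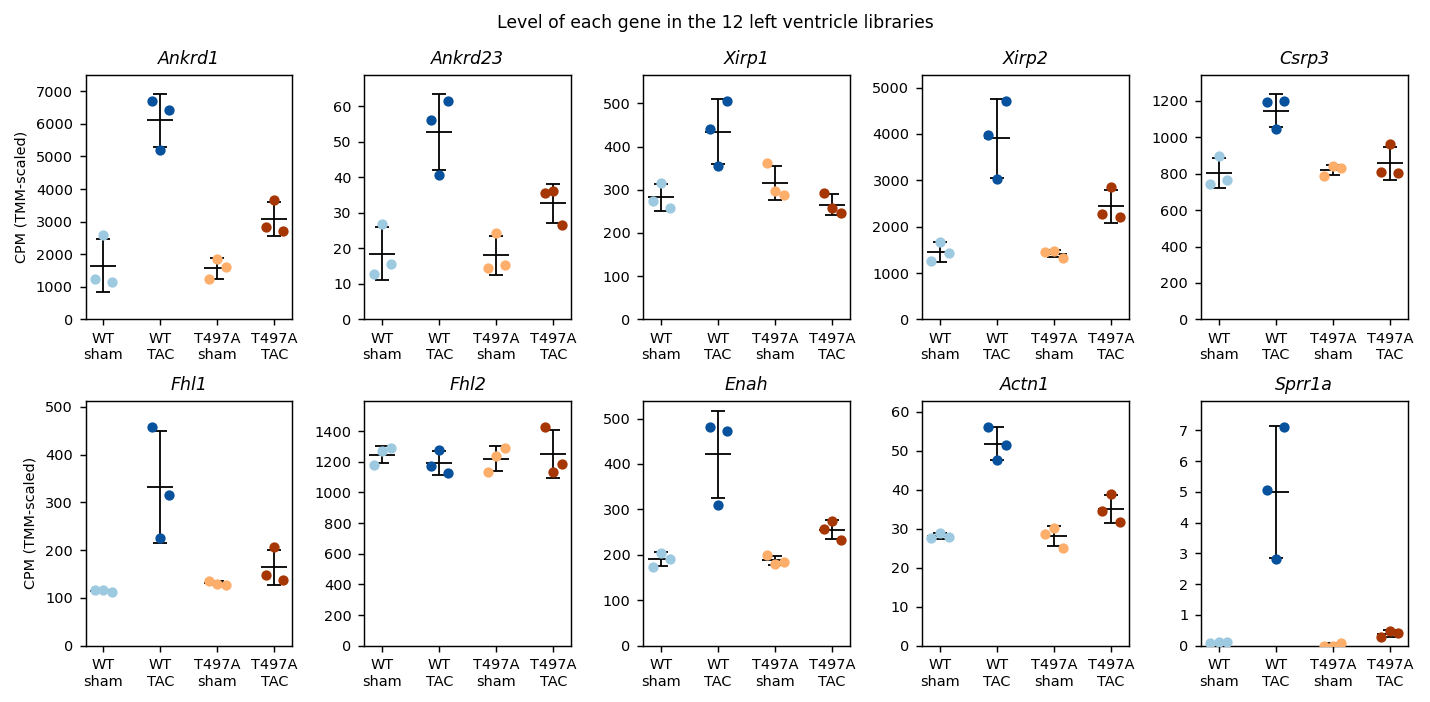
Level of each of the 10 genes in CPM (linear axes from 0) in the 3 libraries of each group; points are libraries, and the bar and whiskers are the mean and SD. The wild type TAC libraries lie above the wild type sham libraries in every panel but that of Fhl2, and Ankrd1 reaches 5184 to 6708 CPM there.

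Ankrd1 (chromosome 19, positions 36111961 to 36120099 of GRCm38, minus strand) encodes CARP, an ankyrin repeat protein that sits on titin in the I-band and also represses transcription in the nucleus. Ankrd1 was measured at 1227, 2588 and 1133 CPM after sham and 6708, 5184 and 6423 CPM after TAC in the wild type hearts. The T497A hearts gave 1228, 1858 and 1619 CPM for Ankrd1 after sham and 2843, 3674 and 2714 CPM after TAC. Every TAC library of a genotype lay above every sham library of that genotype, and the T497A TAC libraries lay between T497A sham and wild type TAC. In wild type Ankrd1 rose 3.70-fold (log2 fold change 1.89 ± 0.32 SE, adjusted p = 0.00282). In T497A the log2 fold change was 0.97 ± 0.31 (95% interval 0.26 to 1.68, adjusted p = 0.288). Wild type sham replicate 2, at 2588 CPM the highest of the 6 sham libraries, was also the highest of them for Ankrd23, and without it the wild type log2 fold change of Ankrd1 was 2.37.

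The 250 bases upstream of the Ankrd1 start are shown because they hold 2 copies of the M-CAT motif (CATTCC, or GGAATG on the other strand; in capitals), the site read by TEAD factors. The copies begin 210 and 123 bases upstream of the start that RefSeq gives on GRCm38.p6 (chr19:36119845-36120094, minus strand).
Ankrd1: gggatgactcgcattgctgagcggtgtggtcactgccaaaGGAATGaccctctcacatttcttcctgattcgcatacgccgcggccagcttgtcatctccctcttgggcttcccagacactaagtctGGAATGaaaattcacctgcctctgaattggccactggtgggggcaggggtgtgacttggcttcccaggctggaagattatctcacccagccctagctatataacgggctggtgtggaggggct
The motif is in 12.6% of the 32851 promoter windows of this length in the table. Among the 13 windows of the 10 genes, which cover 9 of them, it was found upstream of Ankrd1 and Ankrd23. A match of letters is a description of the sequence, not of factor binding.

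Ankrd23 (chromosome 1, 36530188 to 36536883, minus strand) encodes DARP, a relative of CARP in the same titin complex. It was far less abundant. Libraries held Ankrd23 at 12.8, 26.9 and 15.6 CPM after sham and 56.0, 40.7 and 61.5 CPM after TAC in the wild type hearts. The T497A hearts gave 14.6, 24.2 and 15.3 CPM for Ankrd23 after sham and 35.5, 36.1 and 26.4 CPM after TAC. Wild type TAC lay apart from sham (2.86-fold higher, log2 1.51 ± 0.31, adjusted p = 0.0065), and so did T497A TAC, where the call was not made (0.86 ± 0.31, adjusted p = 0.323). The counts of Ankrd23 are uncertain in size, since 2109 of its 2697 exon bases also belong to the annotated gene Gm42417, which was not among the genes tested. Per kilobase of exon, Ankrd1 exceeded Ankrd23 82.4-fold ± 12.5 (SD, n = 3) after sham and 110-fold ± 10.9 after TAC in wild type, and in T497A 83.2-fold ± 14.2 after sham and 88.7-fold ± 12.0 after TAC. Ankrd2, the third gene of this family and mainly one of skeletal muscle, rose 6.59-fold in wild type (2.72 ± 0.69, adjusted p = 0.0113), at 0.12 to 0.30 CPM in sham and 0.49 to 2.76 in TAC. Markers of skeletal muscle were uneven, with a summed level of 1.02 to 15.6 CPM after sham and 2.45 to 28.4 after TAC in wild type and of 2.44 to 18.2 and 0.604 to 1.92 in T497A, and 1 of 6 tested markers was called higher in wild type TAC. Their part in the Ankrd2 counts was not tested.

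Xirp2 (chromosome 2, 67446002 to 67526614, plus strand) encodes a large Xin repeat protein that binds actin at the intercalated disc and the Z-disc. Counts put Xirp2 at 1250, 1666 and 1435 CPM after sham and 3976, 3023 and 4714 CPM after TAC in the wild type hearts. The T497A hearts gave 1446, 1468 and 1333 CPM for Xirp2 after sham and 2269, 2849 and 2198 CPM after TAC. All TAC libraries stood above all sham libraries, and those of T497A below those of wild type. The wild type rise was 2.69-fold (log2 1.43 ± 0.16, adjusted p = 9.02e-05). In T497A the log2 fold change was 0.78 ± 0.16 (interval 0.44 to 1.13, adjusted p = 0.0998), the smallest adjusted p of the 10 genes there together with that of Sprr1a.

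Upstream of Xirp2, known as a target of the factor MEF2A, the window below (chr2:67445752-67446001, plus strand, GRCm38.p6) holds an AP-1 motif (TGANTCA, in capitals) 107 bases upstream of the RefSeq start and a MEF2 motif 74 bases upstream.
Xirp2: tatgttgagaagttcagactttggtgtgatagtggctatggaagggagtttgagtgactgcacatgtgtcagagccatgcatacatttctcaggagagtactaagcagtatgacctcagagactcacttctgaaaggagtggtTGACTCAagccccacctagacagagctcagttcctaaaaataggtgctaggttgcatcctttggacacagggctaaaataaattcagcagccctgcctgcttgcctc
AP-1 motifs are in 6.75% and MEF2 motifs in 2.92% of all windows.

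Xirp1 (chromosome 9, 120013755 to 120023598, minus strand), the gene of the shorter Xin repeat protein, rose in wild type and had a negative fold change in T497A. Xirp1 stood at 274, 317 and 257 CPM after sham and 440, 356 and 506 CPM after TAC in the wild type hearts. The T497A hearts gave 361, 297 and 288 CPM for Xirp1 after sham and 292, 258 and 246 CPM after TAC. Wild type TAC was above sham without overlap, whereas the T497A TAC libraries overlapped T497A sham and 2 of the 3 lay below all of it. Xirp1 rose 1.54-fold in wild type (log2 0.62 ± 0.13, adjusted p = 0.00434). In T497A its log2 fold change was -0.25 ± 0.13 (interval -0.53 to 0.03, adjusted p = 0.489), the 1 negative value of the 10 genes in that comparison. The ratio of Xirp2 to Xirp1 per kilobase of exon was 2.5 ± 0.254 in wild type sham and 2.2 ± 0.231 in T497A sham, against 4.36 ± 0.204 in wild type TAC and 4.51 ± 0.814 in T497A TAC (SD, n = 3). In both genotypes the TAC ratios (4.14 to 4.54 and 3.78 to 5.39) lay above the sham ratios (2.23 to 2.72 and 1.95 to 2.41), and between genotypes the ranges overlapped after each surgery.

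Csrp3 (chromosome 7, 48830398 to 48848033, minus strand) encodes muscle LIM protein, a Z-disc component whose loss causes dilated cardiomyopathy in mice. The Csrp3 values were 743, 897 and 767 CPM after sham and 1195, 1044 and 1200 CPM after TAC in the wild type hearts. The T497A hearts gave 788, 840 and 829 CPM for Csrp3 after sham and 809, 961 and 802 CPM after TAC. Only wild type TAC stood apart from the rest. The rise there was 1.43-fold (log2 0.51 ± 0.09, adjusted p = 0.00114). In T497A the log2 fold change was 0.07 ± 0.09, with an interval of -0.13 to 0.26 (adjusted p = 0.844). Of its paralogues, Csrp2 rose in wild type (1.52-fold, adjusted p = 0.0128) and Csrp1 was not called (log2 0.26 ± 0.11, adjusted p = 0.111).

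Fhl1 and Fhl2 encode LIM-only proteins of the sarcomere, and after TAC in wild type Fhl1 was called and Fhl2 was not. Fhl1 (chromosome X, 56731787 to 56793346, plus strand), whose product binds titin and takes part in hypertrophic signalling, had 116, 116 and 112 CPM in wild type sham hearts, against 457, 225 and 316 CPM with TAC. T497A sham hearts had 135, 129 and 127 CPM, against 148, 206 and 137 CPM with TAC. The wild type TAC libraries were spread from 225 to 457 CPM, and all lay above every other library. Fhl1 rose 2.90-fold in wild type (log2 1.54 ± 0.23, adjusted p = 0.00118), against 0.33 ± 0.23 in T497A (interval -0.18 to 0.84, adjusted p = 0.652).

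Fhl2 (chromosome 1, 43123074 to 43196984, minus strand), which restrains calcineurin signalling and is abundant in heart, stayed within a narrow range. Wild type hearts had Fhl2 at 1181, 1271 and 1289 CPM after sham and 1173, 1277 and 1125 CPM after TAC. T497A hearts had it at 1131, 1238 and 1289 CPM following sham, then 1426, 1136 and 1187 CPM after TAC. All 4 groups overlapped. The log2 fold change after TAC was -0.07 ± 0.09 in wild type (interval -0.26 to 0.12, adjusted p = 0.638) and 0.04 ± 0.09 in T497A (interval -0.15 to 0.23, adjusted p = 0.922). The ratio of Fhl1 to Fhl2 per kilobase was 0.0471 ± 0.00304 for wild type sham hearts, against 0.144 ± 0.0546 with TAC, and 0.055 ± 0.00555 and 0.0682 ± 0.0214 in T497A (SD, n = 3). Fhl3, their skeletal muscle relative, was not called (log2 0.41 ± 0.23 in wild type, adjusted p = 0.216).

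Both Fhl genes have a CArG box, the site of serum response factor, within 250 bases of a RefSeq start, and the windows are shown for that reason with the CArG box in capitals together with any TATA motif (TATAAA, or TTTATA on the other strand). Fhl1 (chrX:56779433-56779682, plus strand) has it 102 bases upstream, and Fhl2 has it 96 bases upstream of one start (chr1:43196762-43197011, minus strand) and 31 bases upstream of another (chr1:43163962-43164211, minus strand).
Fhl1: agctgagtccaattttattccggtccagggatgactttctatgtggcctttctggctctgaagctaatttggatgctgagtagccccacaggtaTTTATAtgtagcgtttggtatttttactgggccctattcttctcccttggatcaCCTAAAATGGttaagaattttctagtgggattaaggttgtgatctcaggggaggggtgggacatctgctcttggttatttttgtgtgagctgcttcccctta
Fhl2, start 1: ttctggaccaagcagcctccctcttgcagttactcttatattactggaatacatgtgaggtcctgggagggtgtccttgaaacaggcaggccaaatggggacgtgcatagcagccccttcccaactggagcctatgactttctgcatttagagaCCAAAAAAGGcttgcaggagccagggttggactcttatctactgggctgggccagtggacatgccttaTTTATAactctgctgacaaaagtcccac
Fhl2, start 2: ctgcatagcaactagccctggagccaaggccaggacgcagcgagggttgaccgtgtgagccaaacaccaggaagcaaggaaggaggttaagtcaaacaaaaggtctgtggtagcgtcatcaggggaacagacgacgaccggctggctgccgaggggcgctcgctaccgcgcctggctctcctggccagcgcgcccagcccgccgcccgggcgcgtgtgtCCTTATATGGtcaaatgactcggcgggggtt
CArG boxes are in 1.47% of all windows, and among the windows of the 10 genes in those of Fhl1 and Fhl2. In the Fhl2 window of start 1 the TATA motif overlaps a MEF2 motif. The motif is thus in windows of both the gene that rose and the gene that was not called.

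Enah (chromosome 1, 181896384 to 182019990, minus strand) encodes Mena, an Ena/VASP protein that lengthens actin filaments and lies at the intercalated disc. For Enah the values were 174, 204 and 192 CPM after sham and 481, 310 and 472 CPM after TAC in the wild type hearts. The T497A hearts gave 199, 181 and 183 CPM for Enah after sham and 257, 276 and 233 CPM after TAC. The 4 groups fell into 3 levels, with both sham groups together at the bottom and T497A TAC between them and wild type TAC. Enah rose 2.22-fold in wild type (log2 1.15 ± 0.14, adjusted p = 0.000159) and had a log2 fold change of 0.44 ± 0.14 in T497A (adjusted p = 0.248). Of the other Ena/VASP genes, Evl rose in wild type (log2 0.36 ± 0.11, adjusted p = 0.029) and Vasp was not called (0.53 ± 0.19, adjusted p = 0.0567).

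Actn1 (chromosome 12, 80167547 to 80260371, minus strand) encodes alpha-actinin 1, the actin crosslinker of non-muscle cells and of growing myofibrils. Wild type sham hearts had 27.6, 29.0 and 27.9 CPM of it, against 56.1, 47.7 and 51.5 CPM with TAC. The T497A libraries had 28.7, 30.2 and 25.2 after sham and 34.7, 39.0 and 31.8 after TAC, again between sham and wild type TAC. Actn1 rose 1.84-fold in wild type (log2 0.88 ± 0.09, adjusted p = 3.37e-05), and in T497A the log2 fold change was 0.33 ± 0.09 (interval 0.13 to 0.53, adjusted p = 0.206). The sarcomeric alpha-actinin gene Actn2 was not called in wild type (log2 0.23 ± 0.09, adjusted p = 0.0656), while the second non-muscle gene, Actn4, rose 1.30-fold (0.38 ± 0.08, adjusted p = 0.00246). Per kilobase, Actn1 stood at 0.00994 ± 0.000665 of Actn2 in wild type sham hearts, against 0.0156 ± 0.00226 with TAC (SD, n = 3). Fibroblasts and smooth muscle also express Actn1 and Enah. The summed fibroblast markers were at 753 to 834 CPM in wild type sham hearts, against 1870 to 2170 with TAC (4 of 6 called higher), and at 717 to 971 and 1060 to 1300 in T497A sham and TAC, while 0 of 7 smooth muscle markers were called. The part of these cells in the 2 results was not tested.

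Sprr1a (chromosome 3, 92483952 to 92485895, minus strand) was close to the limit of detection in sham hearts. Wild type hearts had 4, 6 and 4 counts of Sprr1a after sham and 231, 122 and 305 after TAC. T497A hearts had 0, 0 and 4 counts after sham and 12, 20 and 18 after TAC. In CPM this is 0.09, 0.13 and 0.12, then 5.06, 2.82 and 7.11, then 0, 0 and 0.09, then 0.27, 0.48 and 0.42. Every TAC library stood above every sham library, and the T497A TAC libraries were far nearer to sham than to wild type TAC. A count of 0 allows up to 3 counts, or 0.0746 and 0.0832 CPM, in the 2 T497A sham libraries without a read. The wild type log2 fold change was 5.41 ± 0.55 (adjusted p = 2.41e-05). The T497A value of 3.47 ± 0.73 (interval 1.89 to 5.04, adjusted p = 0.0998) rests on the 4 counts of 1 sham library. It ran from 2.93 to 7.03 over the alternative settings. Of 8 markers of stratified epithelium, 6 were under the filter on low counts, among them Krt5, which was at 0 in all libraries. The summed level was 1.54 to 2.29 CPM in wild type sham and 1.67 to 2.03 in wild type TAC. In T497A it was 1.89 to 3.41 after sham and 2.23 to 2.71 after TAC. Of the 2 tested markers, 0 were called after TAC in wild type, and 1 was called higher in T497A than in wild type after TAC.

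The Sprr1a window (chr3:92485882-92486131, minus strand, GRCm38.p6) is shown for its 2 AP-1 motifs (TGANTCA), 146 and 116 bases upstream of the RefSeq start, and its TATA motif 43 bases upstream, all in capitals.
Sprr1a: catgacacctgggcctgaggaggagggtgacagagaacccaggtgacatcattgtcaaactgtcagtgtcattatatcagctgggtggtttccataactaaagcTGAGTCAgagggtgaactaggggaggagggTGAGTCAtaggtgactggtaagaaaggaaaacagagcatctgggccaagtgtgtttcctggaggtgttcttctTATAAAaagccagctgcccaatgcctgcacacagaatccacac
AP-1 motifs were found upstream of Sprr1a and Xirp2 among the 10 genes, and TATA motifs, which are in 12.4% of all windows, upstream of Sprr1a, Fhl1 and Fhl2.

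**Figure D2:**
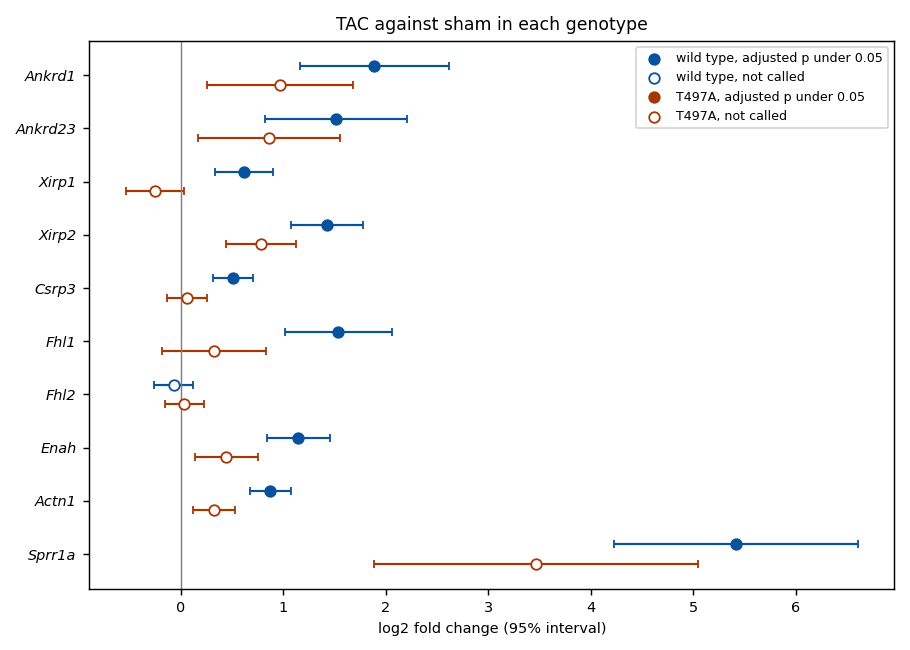
Log2 fold change after TAC for each gene (horizontal axis, with 95% intervals) in wild type (blue) and T497A (brown); filled circles passed an adjusted p of 0.05. In wild type 9 circles are filled, and in T497A 0 are, with the T497A value nearer to 0 for those 9 genes.

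The order of the genes by level was much the same in every group. Per kilobase of exon (RPKM), Fhl2 was highest in wild type sham at 657 ± 30.5 (SD, n = 3), next to Ankrd1 at 572 ± 282, and these overlapped. Csrp3 (300 ± 31.0), Xirp2 (121 ± 17.4), Xirp1 (48.4 ± 5.28) and Fhl1 (30.9 ± 0.652) followed, each beyond the spread of the next. Ankrd23 (6.84 ± 2.76) could be ordered neither against Enah (8.86 ± 0.717) nor against Actn1 (5.09 ± 0.131), and Sprr1a (0.142 ± 0.026) was lowest. After TAC in wild type Ankrd1 led with 2115 ± 281 RPKM, ahead of Fhl2 at 628 ± 41.0, and Fhl1 (89.6 ± 31.5) and Xirp1 (74.3 ± 12.9) were within their spread of each other. T497A TAC kept Ankrd1 (1066 ± 181) ahead of Fhl2 (659 ± 81.6). Together the 10 genes took 0.557% ± 0.112 of all wild type counts after sham and 1.49% ± 0.196 after TAC, against 0.541% ± 0.0388 and 0.838% ± 0.117 in T497A. Ankrd1 alone made up 27.5% ± 7.81 of that sum in wild type sham hearts, against 44.8% ± 1.49 with TAC. Beside this, mitochondrial transcripts took 25.1% to 29.0% of wild type counts after sham and 19.6% to 20.9% after TAC. With mitochondrial genes left out before scaling, the same 9 genes were called.

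The genotypes were compared directly after each surgery. These contrasts use the same libraries as the TAC effects and add no independent samples. After sham, 0 of the 10 genes were called with edgeR, beside 0.0254% of all tested genes. With DESeq2 and with limma-voom 0 were called too, where they called 11 and 2 genes in all. At an unadjusted p under 0.05 there were 0 as well, beside 3.03% of all tested genes. Fhl1 libraries lay apart higher in T497A and Sprr1a libraries apart lower, in the manner of 4.23% and 3.98% of all tested genes. The log2 fold changes ran from -1.73 for Sprr1a, at 0 to 6 counts a library, to 0.19 for Fhl1, with a median of -0.03, and the interval of Ankrd1, -0.78 to 0.63, was the widest after that of Sprr1a (-3.60 to 0.15). Without T497A sham replicate 3, the 1 library of its group with Sprr1a reads, the Sprr1a value was -5.29 (adjusted p = 1).

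After TAC, 7 of the 10 genes were lower in T497A than in wild type, beside 4.06% of all tested genes called lower, 4.64% called higher and 8.7% in either direction. Sprr1a was 12.8-fold lower (log2 -3.68 ± 0.48, adjusted p = 0.000848), Fhl1 2.03-fold (-1.02 ± 0.23, adjusted p = 0.0252) and Enah 1.65-fold (-0.72 ± 0.14, adjusted p = 0.00984). Xirp1 was 1.64-fold lower (-0.71 ± 0.13, adjusted p = 0.0068), Xirp2 1.6-fold (-0.68 ± 0.16, adjusted p = 0.0223), Actn1 1.47-fold (-0.56 ± 0.09, adjusted p = 0.00378) and Csrp3 1.34-fold (-0.42 ± 0.09, adjusted p = 0.0137). The ankyrin repeat genes did not pass, Ankrd1 at -0.99 ± 0.31 (adjusted p = 0.0914) and Ankrd23 at -0.69 ± 0.30 (adjusted p = 0.2), and Fhl2 was at 0.07 ± 0.09. In 9 of the 10 genes every T497A TAC library lay below every wild type TAC library, as in 13.6% of all tested genes (14.4% higher). Beside this, 2 of 6 fibroblast markers were called lower and 3 of 7 cardiomyocyte markers higher in T497A, and their part in these differences was not tested. The median over the 10 was -0.70, against 0.00277 over all tested genes. The count of 7 fell to 3 without wild type TAC replicate 3 (Xirp1, Actn1 and Sprr1a) and to 4 without T497A TAC replicate 1 or replicate 3 (Xirp1, Enah, Actn1 and Sprr1a). The calls over all genes fell beside it, from 1371 to 463 in the first case and to 653 and 592 in the others. Ankrd1 passed with DESeq2 (adjusted p = 0.0298), with limma-voom (0.0327) and with only the TAC libraries fitted (0.00916).

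**Figure D3:**
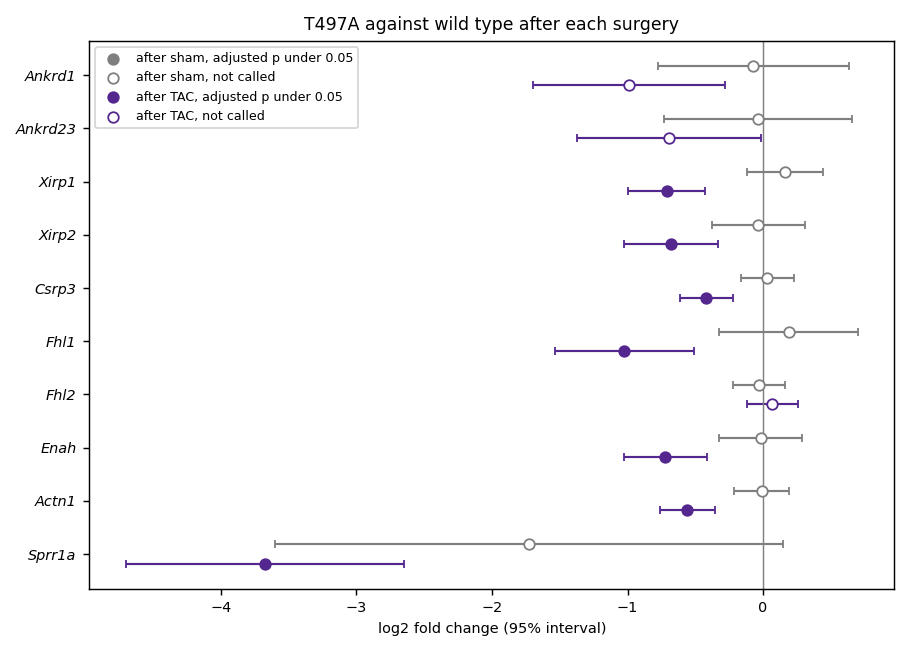
Log2 fold change of T497A against wild type (horizontal axis, with 95% intervals) after sham (grey) and after TAC (purple); filled circles passed an adjusted p of 0.05. After sham all intervals include 0, and after TAC 7 genes are filled, all at negative values from -3.68 to -0.42.

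The test of whether the TAC effect itself depended on genotype called 1 of the 10 genes. The interaction of Xirp1 was -0.87 ± 0.18 on the log2 scale (interval -1.27 to -0.47, adjusted p = 0.0412), beside 0.679% of all tested genes called in that direction, 0.894% in the other and 1.57% in either. It kept its sign in all alternatives and lost the call in 10 of the 12 that leave out 1 library, with an adjusted p of up to 0.106 without wild type sham replicate 3; it held without wild type sham replicate 2 and without wild type TAC replicate 2. The next values were those of Actn1 (-0.55 ± 0.13, adjusted p = 0.0573), Csrp3 (-0.45 ± 0.13, adjusted p = 0.0947), Fhl1 (-1.21 ± 0.32) and Enah (-0.70 ± 0.20, each with adjusted p = 0.0954). Xirp2 (-0.64 ± 0.22), Ankrd1 (-0.92 ± 0.44), Ankrd23 (-0.65 ± 0.43) and Sprr1a (-1.95 ± 1.2) did not pass either, and Fhl2 was at 0.10 ± 0.13. For 6 of the 10 the unadjusted p was under 0.05, as for 16.8% of all tested genes. Without T497A sham replicate 3, where the other T497A sham libraries have no Sprr1a read, the Sprr1a value turned to 1.62. With DESeq2, 6 genes were called, and without wild type TAC replicate 2, 5 were (Xirp1, Xirp2, Fhl1, Enah and Actn1). There were 3 without T497A TAC replicate 2 (Csrp3, Fhl1 and Actn1), 2 without wild type sham replicate 2 (Ankrd1 and Xirp1) and 0 without any 1 of the other 9 libraries. The calls over all genes moved as well, from 248 in the main fit to 859 with DESeq2. They were 297, 517 and 212 without wild type TAC replicate 2, T497A TAC replicate 2 and wild type sham replicate 2. Without any 1 of the other 9 libraries they were 40 to 230. Averaged over genotypes, TAC raised 8 of the 10 genes, beside 11.2% of all tested genes called higher and 22.4% in either direction, with Xirp1 (0.18 ± 0.09, adjusted p = 0.177) and Fhl2 not called. Without wild type TAC replicate 2 Xirp1 was called too (0.25, adjusted p = 0.0441), which made 9.

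Outside T497A sham, libraries of 1 group tended to be high or low for several of the genes at once. In wild type TAC, replicate 2 was the lowest of its group for 9 of the 10 genes and the highest for Fhl2. In T497A TAC, replicate 2 was the highest for 8 genes and replicate 3 the lowest for 8. In wild type sham, replicate 2 was the highest for 8. T497A sham was more mixed, with replicates 1, 2 and 3 the highest for 3, 5 and 2 genes and the lowest for 5, 1 and 4. Over the 12 libraries the Pearson correlation of log2 CPM between pairs of the 10 genes had a median of 0.886 (45 pairs), and of deviations from the group mean 0.458, with a range from -0.458 to 0.865. These pairs share libraries and scaling factors, so the values are a description. Fhl2 correlated with the mean of the other 9 at -0.287, whereas Xirp1 did at 0.692 and the other 8 between 0.921 and 0.970.

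**Figure D4:**
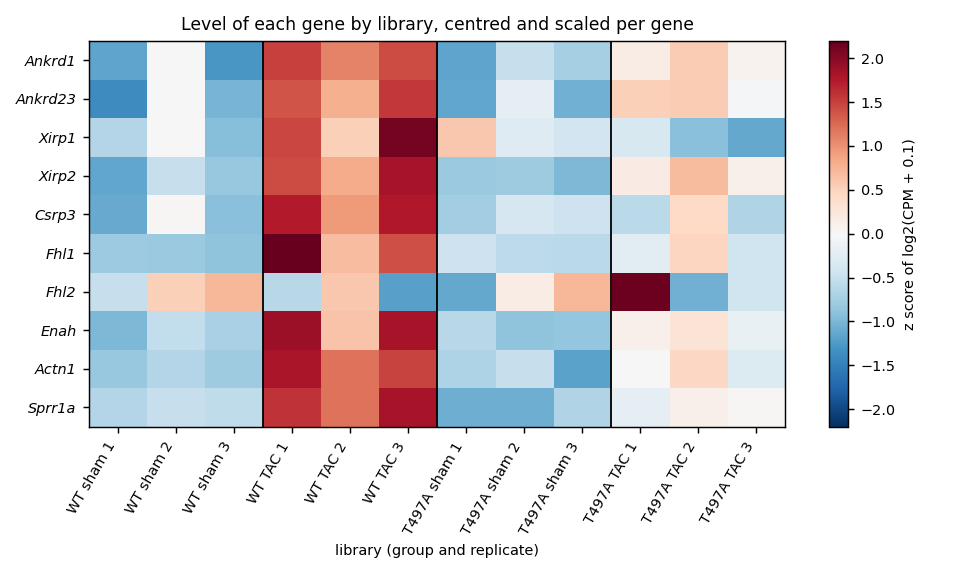
Level of each gene (rows) in each library (columns, 3 per group), as the z score of log2(CPM + 0.1) over the 12 libraries. Wild type TAC is higher than wild type sham for every gene but Fhl2, its replicate 2 is the palest of the 3 for those genes, and the T497A TAC libraries are intermediate for most genes and low for Xirp1.

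Among 9390 other genes with a mean of at least 5 CPM, those whose log2 CPM followed the mean z score of the 10 genes most closely over the 12 libraries were Pfkp, Fbln2, Otulin, Pqlc3 and Emp1, with Pearson r from 0.981 to 0.987. Pfkp, an isoform of phosphofructokinase, was at 38.7, 109, 35.9 and 53.7 CPM in wild type sham, wild type TAC, T497A sham and T497A TAC (means of 3). Fbln2, the matrix glycoprotein fibulin 2, was at 79.1, 199, 77.9 and 112 CPM, and Emp1, a membrane protein gene, at 63.1, 239, 65.8 and 107. Otulin, a deubiquitinase of linear ubiquitin chains, was at 16.6, 35.3, 17.1 and 20.5 CPM. The score they were picked to follow was highest in the wild type TAC libraries, so their rise there comes with the choice and is not a separate result. Of the 5 only Otulin had a called interaction (adjusted p = 0.0158, edgeR), and the same choice bears on it.

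The lists of other genes from the same structures were described in the same way. The lists share genes. Des is counted in both the Z-disc list and the intercalated disc list. Vcl is counted in both the intercalated disc list and that of the serum response factor and YAP pathways. Of 31 tested Z-disc genes, 10 rose and 1 fell in wild type TAC, with a median log2 fold change of 0.13, beside 0.014 over all tested genes and 12.3% of them called higher. Synpo2l, an actin-bundling protein of the Z-disc, rose 3.47-fold (1.79 ± 0.23, adjusted p = 0.000527), from 175 ± 14.4 to 609 ± 199 CPM, and was at 165 ± 14.2 and 221 ± 42.0 in T497A. Myot, myotilin, rose 2.03-fold, the filamin gene Flnc 1.81-fold (adjusted p = 9.66e-05) and the intermediate filament gene Des 1.61-fold. Tcap (-0.25 ± 0.24), Ldb3 (0.08 ± 0.06), Myoz2 (0.07 ± 0.13) and Ttn (-0.55 ± 0.20, adjusted p = 0.0671), which build the Z-disc or span the sarcomere, were not called. In T497A 0 of the 31 were called after TAC, beside 0.114% of all tested genes. At an unadjusted p under 0.05 there were 0 as well, beside 11.7% of all tested genes. Between genotypes after TAC 7 were lower in T497A, among them Synpo2l (2.75-fold), Flnc (1.53-fold) and Des (1.41-fold), and 0 were higher. Of all tested genes 4.06% were called lower there and 4.64% higher.

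The 31 tested genes of the intercalated disc and costamere, the link from Z-disc to membrane, split into 10 that rose and 7 that fell in wild type TAC (median -0.06; 12.6% of all tested genes were called lower). The integrin gene Itga5 rose 1.90-fold (0.92 ± 0.10, adjusted p = 2.54e-05), the LIM protein gene Zyx 2.00-fold (1.00 ± 0.15) and Nrap, an actin-binding partner of muscle LIM protein, 1.54-fold (0.63 ± 0.08). The desmosomal cadherin genes Dsg2 and Dsc2, named after their values were seen, fell 1.75-fold (-0.81 ± 0.12, adjusted p = 0.000313) and 1.6-fold (-0.68 ± 0.10, adjusted p = 0.000334). Dsp, for desmoplakin, had the smallest of the 7 falls, 1.21-fold (-0.27 ± 0.08, adjusted p = 0.0261). Cdh2 (-0.15 ± 0.06), Gja1 (-0.25 ± 0.23) and Vcl (-0.08 ± 0.07), for N-cadherin, connexin 43 and vinculin, were not called. Between genotypes after TAC the list split too, with 3 of the 31 called higher and 5 lower in T497A (median -0.02). Beside this, 4.64% of all tested genes were called higher and 4.06% lower. Itga5 was 1.78-fold and Zyx 1.77-fold lower in T497A than in wild type after TAC, and both had a called interaction (adjusted p = 0.0183 and 0.0416, edgeR). In T497A hearts Zyx had 43.3 ± 3.58 CPM with sham surgery and 43.6 ± 6.86 with TAC (SD, n = 3).

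Beside the counts of the next 3 lists in wild type TAC, 12.3% of all tested genes were called higher and 12.6% lower. Of 25 actin remodelling genes 12 rose and 4 fell in wild type TAC (median 0.34). The rises were led by the thymosin gene Tmsb10 (2.11-fold, adjusted p = 0.000998, edgeR) and Msn, moesin (1.62-fold). Of 10 tested paralogues of the 10 genes, 4 rose and 0 fell (median 0.37; 7 rose with only the wild type libraries fitted, and 2 without wild type sham replicate 2, wild type sham replicate 3 or wild type TAC replicate 2), and of 19 genes of the serum response factor and YAP pathways 5 rose and 1 fell (median 0.30). Srf itself rose 1.37-fold (0.45 ± 0.10, adjusted p = 0.00484), Ccn2, a target of YAP, 6.29-fold (2.65 ± 0.31, adjusted p = 0.000385) and Acta1, skeletal actin, 13.1-fold. The 1 that fell was Amotl2 (-0.59 ± 0.11, adjusted p = 0.00161). The other 13 of the 19 were not called, among them Ccn1 (0.79 ± 0.31, adjusted p = 0.0985) and Ajuba (-0.05 ± 0.18, adjusted p = 0.88). Amotl2, Ccn1 and Ajuba were named after their values were seen. In T497A 0 genes of these lists, or of the intercalated disc list, were called after TAC with edgeR, beside 0.114% of all tested genes. At an unadjusted p under 0.05 there were 4 actin remodelling genes, 2 paralogues, 3 pathway genes and 4 intercalated disc genes, where 11.7% of all tested genes passed. The median of the 10 genes in wild type TAC was 1.29, above that of each of the 5 lists, and this order was not tested. The 10 were grouped as strain-responsive and the lists by function, both with earlier results of these data known. A higher median of the 10 is therefore no separate result.

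**Figure D5:**
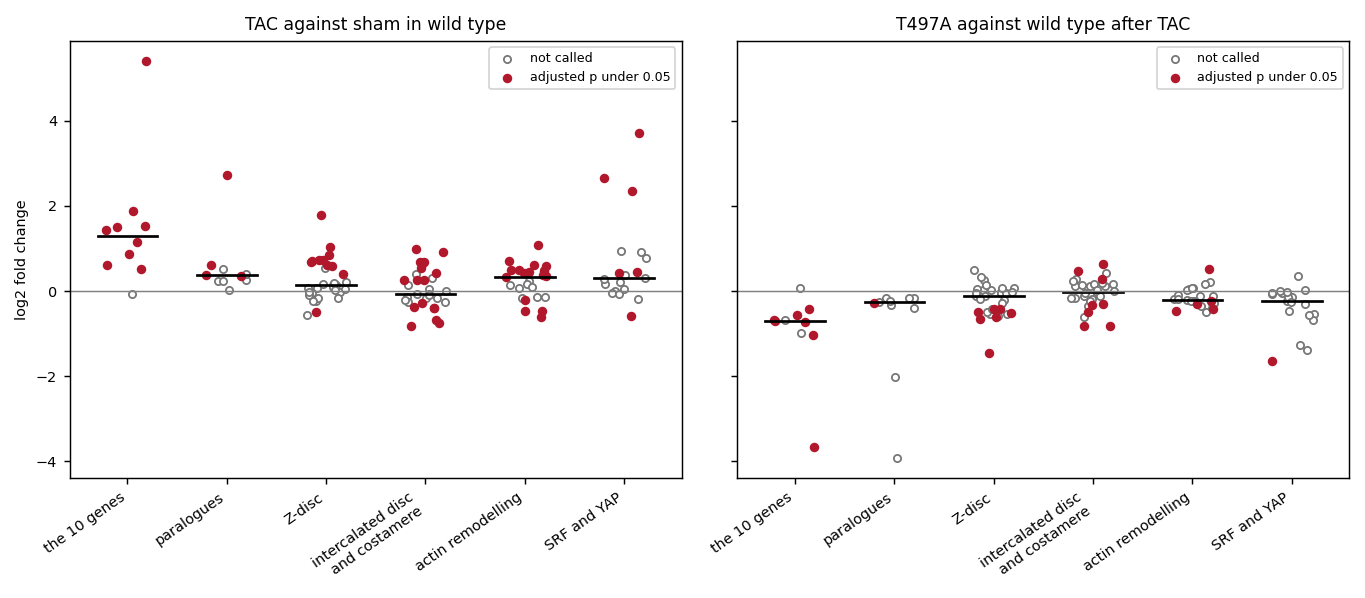
Log2 fold change (vertical axis) of the 10 genes and of the genes of 5 lists, for TAC against sham in wild type (left) and T497A against wild type after TAC (right); each circle is a gene, red where the adjusted p is under 0.05, and the black line is the median. The 10 genes have a median of 1.29 on the left and -0.70 on the right, and the intercalated disc list lies on both sides of 0 in both panels.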

How the data were processed

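The authors deposited whole-number read counts per gene for 12 libraries, not normalized. The submitters' processing notes list STAR 2.7.3a, Trim Galore 0.6.4, Subread 1.6.3 with featureCounts, limma 3.50.3 and, as genome, mm10. For settings, strand use, annotation release and shared reads, nothing is given in the sources used here. Per the labels' protocols, libraries were made with an mRNA kit and read single-end for 75 cycles. Groups were taken from titles; the replicate number is identical in all titles, which leaves accession order to name the replicates and pairs none of them. Replicates of a group differed beyond counting noise (chi-square per degree of freedom 21.3 to 57.5).

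Genes passing filterByExpr (minimum count 10; 15764 genes) were fitted in 1 model over the 4 groups with edgeR 4.0.16 in R 4.3.3 (TMM, robust glmQLFit, glmQLFTest), p-values adjusted over all tested genes by Benjamini-Hochberg, threshold 0.05; the script was tested on simulated data. The SE is the log2 fold change over the square root of F, and intervals use its degrees of freedom. The biological coefficient of variation was 17.2%. CPM are TMM-scaled; RPKM divide them by the union of exons in GENCODE M21 (GRCm38), where the versions of Xirp1 and Xirp2 differ from the file. Promoter windows are RefSeq's (GRCm38.p6). Alternatives were RLE factors, DESeq2 1.42.0, limma-voom 3.58.1, no filter on low counts, mitochondrial genes left out, only the compared groups, and leaving out each library.

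The 10 genes and the lists of related genes were chosen with earlier results of these data known. Named beside the 10 genes are fixed paralogues and structural genes and, per list, the 2 largest changes called in wild type with a mean of at least 5 CPM; likeness uses log2 CPM with a prior count of 2. Counts of genes with antisense or overlapping partners (Ankrd23, Xirp2, Actn1) are uncertain.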

Additional observations from a re-analysis of the deposited data

Results flagged for a closer look

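The TAC effect on Xirp1 differed between genotypes by the test of the difference itself, with an interaction of -0.87 on the log2 scale (SE 0.18, adjusted p = 0.0412, edgeR's quasi-likelihood test): 1.54-fold higher after TAC in wild type, and -0.25 on the log2 scale in T497A, where 2 of 3 TAC libraries lay below all T497A sham libraries. The call was lost in 10 of the 12 fits that leave out 1 library. The value nearest to 0 was -0.75 without wild type TAC replicate 3 (adjusted p = 0.0922), and the highest adjusted p was 0.106 without wild type sham replicate 3.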

How the results depend on the processing

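The 9 genes called after TAC in wild type were the same 9 under all 12 alternatives. Between genotypes after sham 0 were called under any, where 1 to 14 genes were called in all. For TAC in T497A the count of 0 became 2 with DESeq2 and 1 without a filter on low counts, and stayed at 0 with each library left out; over all genes the calls there were 18, 297 and 331. Between genotypes after TAC the count of 7 ran from 3 to 7 with a library left out, and was 5 without the filter and 6 with only the TAC libraries (over all genes 1371, against 463 to 1455, 1757 and 916). It was 8 with DESeq2 and 8 with limma-voom (2010 and 1454 over all genes). The average TAC effect had 8 calls, and 8 to 9 with a library left out. The interaction count of 1 became 6 with DESeq2 and 3 without the filter (248, 859 and 898 over all genes). It ran from 0 to 5 with a library left out, where the calls over all genes ran from 40 to 517. The paralogues called in wild type after TAC numbered 7 in place of 4 with only the wild type libraries fitted, and 2 without wild type sham replicate 2 or 3 or wild type TAC replicate 2. The causes were not tested.

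Of 60 log2 fold changes, 13 changed sign under some alternative, 0 of them called in any fit. With a library left out those between genotypes after sham ran from -0.068 to 0.060 for Actn1, -0.29 to 0.41 for Ankrd1 (0.012 with limma-voom), -0.31 to 0.34 for Ankrd23, -0.026 to 0.11 for Csrp3, -0.082 to 0.035 for Enah, -0.077 to 0.016 for Fhl2 and -0.13 to 0.074 for Xirp2. Fhl2 ran from -0.070 to 0.10 for TAC in T497A, -0.035 to 0.13 between genotypes after TAC, -0.0027 to 0.17 for the interaction and -0.068 to 0.017 for the average TAC effect. Csrp3 in T497A ran from -0.023 to 0.11, and the Sprr1a interaction from -2.48 to 1.62. Depth limits Sprr1a, with 0 to 6 counts in sham libraries. No paired analysis was possible because all titles carry the same replicate number.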
